A study of Mus musculus with 25 samples.

Results

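Collagen genes were followed in the pituitaries of mice in which the retinoblastoma protein RB was depleted and then allowed to return. The set was taken by symbol, as every gene listed in the deposited expression tables whose name is Col, a number, the letter a and a number. It held 41 of the 15768 genes listed in either table, of which 41 were in the table of the long-term mice and 35 in that of the short-term mice. Col4a5, Col4a6, Col6a4, Col9a1, Col9a3 and Col22a1 were listed for the long-term mice only. The tables hold genes that passed a minimum of reads in one condition, so genes that would match the name but failed that minimum are not in the counts below.

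Every mouse was an adult of the shRb strain, which carries a reverse tetracycline transactivator under the broadly active Rosa26 promoter and, at the Col1a1 locus, a doxycycline-responsive cassette that makes GFP and a miR-E hairpin against Rb1 (shRb5). Doxycycline (dox) in sweetened drinking water switches the hairpin on in many tissues, and its removal, with the sucrose, lets RB return. Long-term mice were sampled after 6 weeks of dox (6w+dox, n = 3, all female), after 12 weeks of dox (12w+dox, n = 4, of which 2 were female) or after 6 weeks of dox and 6 weeks without it (12w-res, n = 5, of which 3 were female). Short-term mice had 16 weeks of dox and were sampled on it (16w+dox, n = 3, male) or 1, 3 or 5 days after its removal (1d-dox, n = 4, female; 3d-dox, n = 3, male; 5d-dox, n = 3, female). Whole pituitaries with their lesions were profiled, and the transgenes were present in all groups, so no value below compares the mice with animals that lack the cassette.

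Collagens are trimers of alpha chains wound into a triple helix, and they build most of the fibrous scaffold and the basement membranes of a tissue. Fibrillar collagens such as types I, III and V form banded fibers, types IV and VIII form networks, fibril-associated and beaded-filament types decorate or link the fibers, and a few types span the plasma membrane. In the pituitary they surround the hormone cell cords and the capillaries and are made largely by fibroblasts, pericytes and endothelial cells. Because the samples are bulk tissue, fewer cells of a type and less RNA per cell cannot be told apart in any value below.

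The hairpin and its target are shown first, since the cassette sits in a collagen locus and the treatment is read through it. The site of shRb5 is given as the study's list of hairpins has it, with the bases that would pair with guide bases 2 to 8, the seed, in capitals, taking the guide to start opposite the last base.

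shRb5 target site: gaggagtttgattCCATTATa

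Among the protein-coding transcripts of GENCODE vM21 the whole site was found in Rb1 alone, at bases 2399 to 2419 of a transcript of 4656 bases, inside the coding sequence. The seed letters were sought in the 3′ untranslated region of the longest protein-coding transcript of each gene. For Col6a3 and Col18a1 that transcript has no such region in the annotation. Of the other 39 collagen genes 1 held the letters, Col5a2, against 7.45% of all genes of the long-term table with such a region. Rb1 itself stood at 1.86, 2.54 and 5.09 FPM in 6w+dox, at 3.45, 2.42, 2.93 and 4.05 FPM in 12w+dox, and at 16.1 to 20.3 FPM in the 5 mice of 12w-res. FPM are reads per gene scaled by the library's DESeq2 size factor on a common scale. All 12w-res mice were above all mice on dox, with a fold change of 5.08 over 12w+dox (limma, adjusted p = 3e-06).

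For scale, the libraries held 19066053 to 28968476 reads on genes in the long-term mice and 9573101 to 13036900 in the short-term mice. The long-term libraries were selected for poly(A) and the short-term ones depleted of rRNA, so levels were compared only within each set. The pituitary factors Pitx1 and Lhx3 were present, while Lhx4 and Hesx1 were not listed. Replicates are different mice. A gene is called here when its adjusted p over all tested genes is under 0.05 and its log2 fold change is above 1 or below -1 on the scale log2(FPM + 0.5), which understates the change of genes with low levels.

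The collagen transcripts added up to 559, 593 and 723 FPM in the 6w+dox mice, to 250 to 755 FPM in the 12w+dox mice and to 1308 to 2356 FPM in the 12w-res mice. Every 12w-res mouse was above every mouse on dox. The medians were 593 FPM in 6w+dox, 549 FPM in 12w+dox and 1826 FPM in 12w-res. As a share of all reads on genes the groups on dox changed places, with medians of 561 CPM (reads scaled to a common total of reads on genes) in 6w+dox, 697 CPM in 12w+dox and 1377 CPM in 12w-res. The highest 12w+dox mouse, at 1001, then lay close under the lowest 12w-res mouse, at 1130. Per kilobase of transcript, Col1a2 had the highest mean level in each of the 3 groups and Col4a1 the next. In 12w-res mice the 5 leading genes made up 67.5 to 70.7% of the summed FPM.

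**Figure D1:**
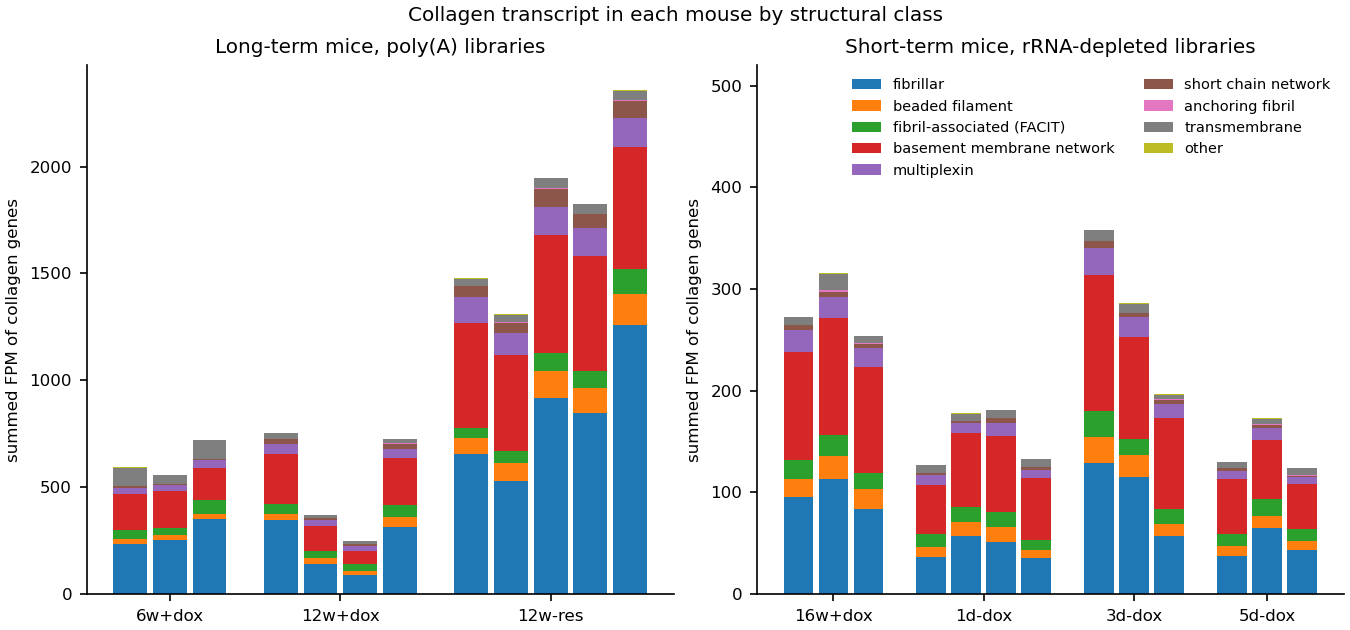
Summed FPM of the collagen genes in each mouse, 1 bar per mouse, coloured by structural class, for the long-term mice (left) and the short-term mice (right, separate scale). The 12w-res bars reach 1308 to 2356 FPM against 250 to 755 FPM in 12w+dox, and fibrillar and basement membrane collagens fill most of each bar.

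The first comparison asks what changed with time on dox, as lesions grew. From 6w+dox to 12w+dox most collagen genes kept overlapping levels, as most genes did, while a short-chain pair rose and a membrane-spanning pair fell. For 2 of the 41 genes every 12w+dox mouse was above every 6w+dox mouse, against 12.9% of all genes. For 3 every 12w+dox mouse was below, against 12.4%. Of the 41 genes 2 were called higher, where 3.15% of all 15315 genes were, and 3 were called lower, where 4.04% were. Before adjustment, 10 collagen genes fell and 2 rose with a limma p below 0.05, beside 19.3% and 17.1% of all genes. The median change of the collagen genes was -0.16 on the log2 scale, beside -0.01 for all genes. Scaling by total reads in place of size factors moved the median of all genes to 0.29 and that of the collagen genes to 0.11, with 25 of 41 above zero in place of 17. By edgeR and DESeq2 on the recovered reads 5 and 6 collagen genes were called lower, the additions being Col17a1, Col23a1 and, by DESeq2, Col4a6, where of all genes these tools called 765 and 848 lower.

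Col10a1, the type X chain known from hypertrophic cartilage, had 0.116, 0.223 and 0.207 FPM in the 6w+dox mice, which is 2 to 5 reads per library. It had 4.26, 3.26, 1.42 and 3.52 FPM in the 12w+dox mice, or 46 to 126 reads. The groups did not overlap, and the log2 fold change was 2.33 ± 0.34 (SE; limma, adjusted p = 0.000694). All 6w+dox mice were under the minimum of 10 reads, so the gene was tested only because of its levels in the later groups. Its tests against 6w+dox are therefore not independent of how it entered. The size of this change depends on how the low counts are handled, and it was 3.43 with a pseudocount of 0.1 and 4.01 by edgeR on the recovered reads. Col8a1, a network chain known from vessel walls and from the basement membrane of the corneal endothelium, rose from 4.48, 2.58 and 2.57 FPM to 18.7, 7.69, 6.41 and 16.9 FPM, again without overlap (log2 fold change 1.70 ± 0.33, limma, adjusted p = 0.00334).

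Col13a1 and Col25a1 are single-pass membrane collagens, the first found at cell adhesion sites and the neuromuscular junction, the second in neurons. Col13a1 stood at 43.4, 20.04 and 39.9 FPM in 6w+dox and at 5.02, 3.64, 3.45 and 4.69 FPM in 12w+dox, a drop of 2.83 ± 0.24 on the log2 scale (limma, adjusted p = 7.12e-05). At 6 weeks it was the third most abundant collagen per kilobase, and at 12 weeks it was no longer among the first 8. Col25a1 stood at 16.2, 9.62 and 29.2 FPM and then at 8.30, 1.60, 2.53 and 3.80 FPM, a drop of 2.12 ± 0.41 (limma, adjusted p = 0.00363). All 6w+dox mice were above all 12w+dox mice for both genes. In females alone the Col25a1 change of -1.99 missed the threshold (limma, adjusted p = 0.0670). The remaining membrane collagens, Col17a1 and Col23a1, had log2 fold changes of -0.94 (limma, adjusted p = 0.0350) and -0.89 (limma, adjusted p = 0.0452), short of the fold required.

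Col27a1, a cartilage fibrillar chain, was called lower, but the call hung on single mice and on the fit. Its 6w+dox levels were 3.73, 5.03 and 36.9 FPM against 3.87, 1.22, 1.48 and 2.04 FPM in 12w+dox, and the groups overlapped. Without the 6w+dox mouse of replicate 3 the change was -0.96 in place of -1.95 and was not called (limma, adjusted p = 0.173). The same mouse was also the highest of its group for Col11a1 (35.4 FPM), Col11a2 (7.99 FPM) and Col20a1 (24.5 FPM). Leaving out 6w+dox replicate 2 or 12w+dox replicate 2, 3 or 4 ended the Col27a1 call as well (limma, adjusted p = 0.0644 to 0.108). So did a pseudocount of 1, scaling by total reads, the replicate block, sex as a term, females alone and a fit of only the groups compared.

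Markers of many cell types fell between these groups. Of the 63 tested 24 were called lower and 1 higher, where 4.04% and 3.15% of all genes were. Called lower were 3 of 6 fibroblast, 3 of 8 endothelial and 2 of 4 smooth muscle markers. So were 3 of 5 stem and folliculostellate and 2 of 3 Schwann markers, but 0 of 6 pericyte and 0 of 7 macrophage and leukocyte markers. The fibroblast list was split, with 3 genes above zero and 3 below. For 1 fibroblast marker every 12w+dox mouse was above every 6w+dox mouse. Of the 6 markers of pituicytes and the neural lobe, 4 were called lower at 12 weeks, among them Avp and Oxt, the neurohypophysial hormones, and none was called higher. Their summed level was 90.7 to 209 FPM in 6w+dox and 43.9 to 75.5 FPM in 12w+dox. Of the 8 markers of the other anterior lobe hormone cells 5 were called lower, and their sum went from 57306 to 92654 FPM down to 1177 to 12622 FPM. The part of any of these cells in the fall of Col13a1 and Col25a1 was not tested.

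**Figure D2:**
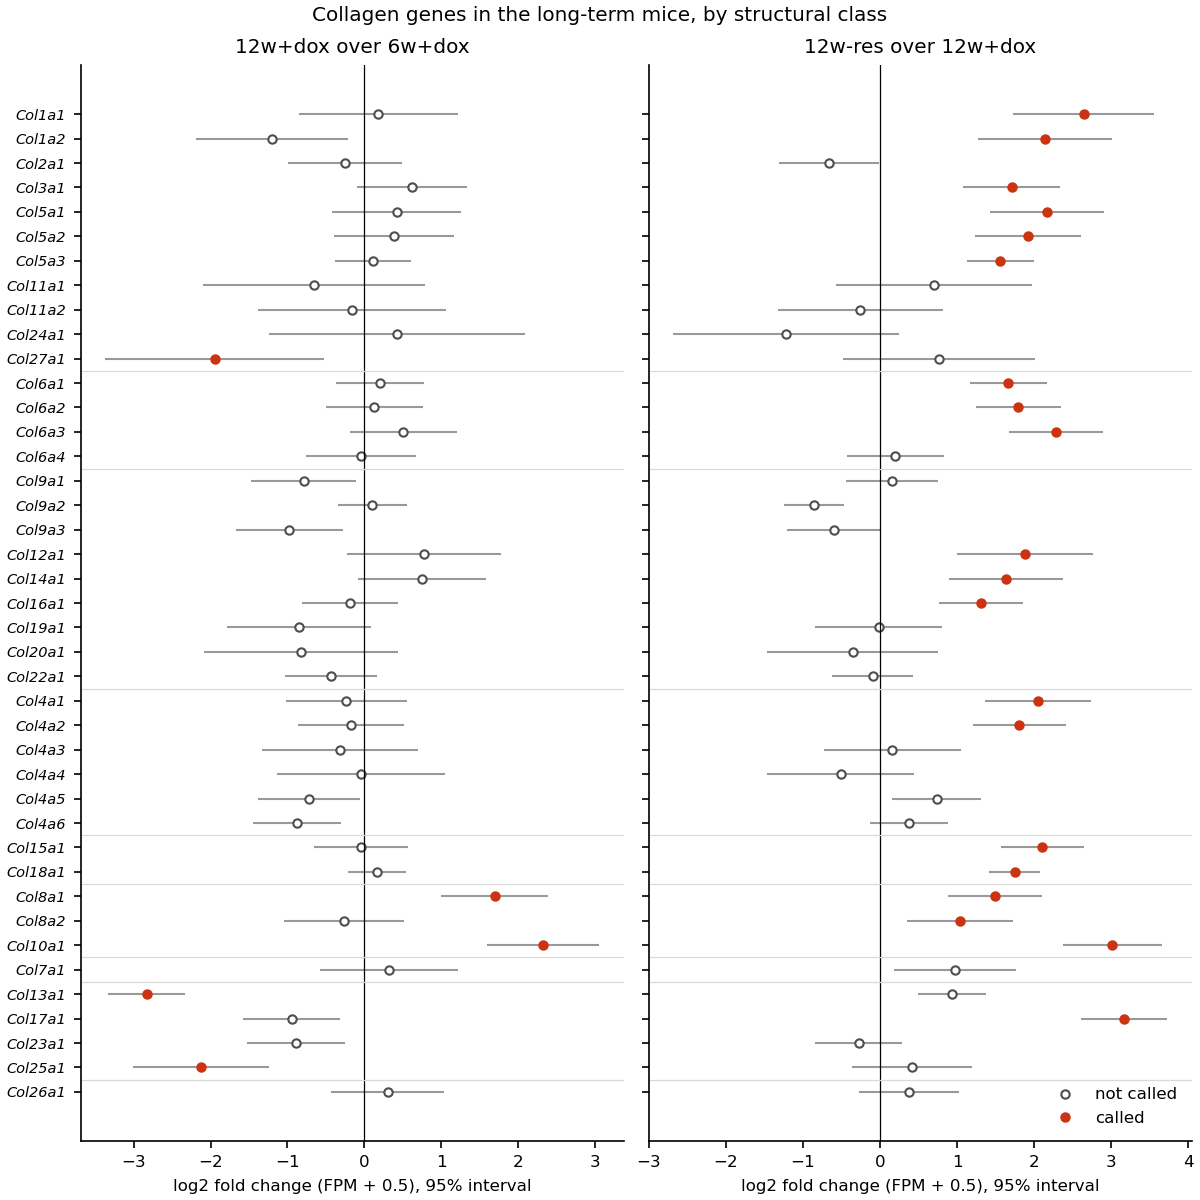
Log2 fold change of each of the 41 collagen genes with its 95% interval, for 12w+dox over 6w+dox (left) and 12w-res over 12w+dox (right), with grey lines between structural classes and filled points for called genes. On the left 5 genes are called, and on the right 20, all of them to the right of zero.

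Neither type I chain was called in this interval. Type I collagen is a heterotrimer of a pair of alpha1 chains, from Col1a1, and an alpha2 chain, from Col1a2. Col1a1 was at 43.4, 34.9 and 25.7 FPM in 6w+dox and at 60.5, 29.8, 14.1 and 86.0 FPM in 12w+dox, which overlap (log2 fold change 0.19 ± 0.49). Col1a2 was at 123, 158 and 184 FPM and then at 147, 42.4, 26.7 and 114 FPM, a change of -1.20 ± 0.46 that missed the threshold (limma, adjusted p = 0.0750) and was called without the 12w+dox mouse of replicate 1 (-1.58, limma, adjusted p = 0.0178). The sign for Col1a1 turned in some alternative fits, so no direction is given for it.

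Within each mouse, the ratio of Col1a1 to Col1a2 in FPM per kilobase does not depend on the scaling of the library. It was 0.126 to 0.318 in 6w+dox, 0.371 to 0.677 in 12w+dox and 0.659 to 0.874 in 12w-res, with no overlap between 6w+dox and either later group and a slight overlap between the 12-week groups. The difference in mean log2 ratio was 1.40 between 12w+dox and 6w+dox (two-sided exact permutation test, p = 0.0571, the smallest that 4 against 3 mice allow) and 0.51 between 12w-res and 12w+dox (exact permutation test, p = 0.0317). Over the 18 ratio tests made on 6 pairs of chains these became 0.129 and 0.107 after Benjamini-Hochberg adjustment, and no pair passed. Tests of 4 against 3 mice could not have passed, so this does not show that the ratios were alike. Between 12w-res and 6w+dox the type I ratio differed by 1.91 (exact permutation test, p = 0.0357, and 0.107 after adjustment). Other pairs had exact p-values as low. The ratio of Col4a1 to Col4a2 was 1.49 to 1.58 in 6w+dox, 1.35 to 1.66 in 12w+dox and 1.60 to 1.805 in 12w-res, a difference of 0.24 between 12w-res and 12w+dox (exact permutation test, p = 0.0317) and of 0.18 between 12w-res and 6w+dox (p = 0.0357, exact). Between 12w-res and 12w+dox the ratio of Col3a1 to Col1a1 differed by -0.94 (exact permutation test, p = 0.0317), and between 12w-res and 6w+dox that of Col6a3 to Col6a1 by 1.02 (exact permutation test, p = 0.0357). All 4 of these other differences became 0.107 after adjustment. The ratio of Col6a1 to Col6a2 lay between 1.10 and 1.60 in all long-term mice. In the short-term mice the type I ratio was between 0.631 and 1.14.

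**Figure D3:**
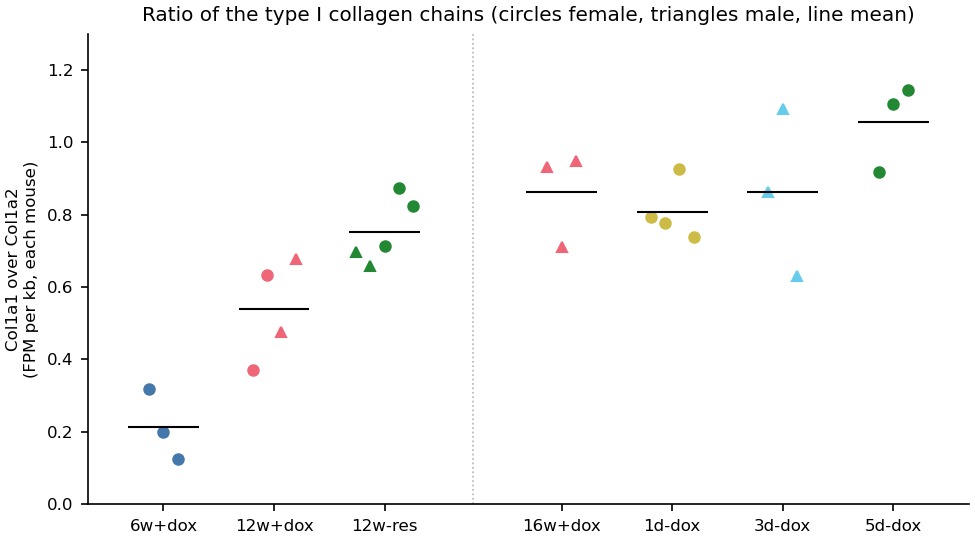
Ratio of Col1a1 to Col1a2 in FPM per kilobase in each mouse, by group, with circles for females, triangles for males and a line at the group mean. The 6w+dox mice lie at 0.126 to 0.318, below every other mouse, and the dotted line separates library preparations.

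The second comparison asks what differed when dox was withdrawn for the last 6 of 12 weeks. In 12w-res pituitaries the collagen genes were higher as a group and across most structural classes. Of 41 genes 20 were called higher than in 12w+dox, where 6.24% of all genes were, and 0 were called lower by limma, where 5.04% of all genes were. At an unadjusted p under 0.05, 23 collagen genes were higher and 2 lower, beside 24.3% and 23.0% of all genes. By edgeR on the recovered reads 22 were higher and 0 lower, and by DESeq2 21 were higher and 1, Col9a3, lower (-1.61), where of all genes edgeR called 1249 higher and 913 lower and DESeq2 1290 and 950. The 20 genes were among those called by both tools. For 20 genes every 12w-res mouse was above every 12w+dox mouse, against 17.1% of all genes, and the median change was 0.98 on the log2 scale beside 0.00 for all genes.

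Another scaling changed part of this count. Pomc, the precursor of the melanotroph and corticotroph hormones, was at 452682 to 573321 FPM in 12w-res and at 93231 to 194592 FPM in 12w+dox, and scaling by total reads moved the median of all genes to -0.61. The part of Pomc in that shift was not tested. On that scale 16 collagen genes were called higher and 2, Col2a1 and Col9a2, lower, with 25 of 41 above zero in place of 31, while of all 15315 genes 244 were called higher and 3364 lower. The median of the collagen genes was then 0.51, so that their distance from all genes was not smaller.

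Among the 11 fibrillar chains 6 were called higher. Col1a1 was at 196, 138, 263, 289 and 414 FPM in 12w-res, all above the highest 12w+dox mouse at 86.0 FPM, with a log2 fold change of 2.64 ± 0.43 (limma, adjusted p = 0.000318). Col1a2 was at 253, 189, 332, 299 and 453 FPM (2.14 ± 0.41, limma, adjusted p = 0.00108). Col3a1, whose homotrimers run with type I in elastic tissues, was at 113, 116, 202, 148 and 242 FPM against 72.4, 42.5, 25.1 and 67.1 FPM (1.71 ± 0.30, limma, adjusted p = 0.000553). The 3 type V chains, which nucleate type I fibrils, rose too, by 2.16, 1.92 and 1.56 for Col5a1, Col5a2 and Col5a3. The remaining fibrillar chains Col2a1, Col11a1, Col11a2, Col24a1 and Col27a1 were not called, with changes between -1.22 and 0.76.

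The beaded-filament chains of type VI, which link cells to the surrounding matrix, were called for 3 of 4 genes. Col6a3 was at 24.4, 20.6, 36.8, 37.3 and 37.7 FPM in 12w-res against 9.07, 4.84, 2.90 and 8.91 FPM, with a change of 2.28 ± 0.29 (limma, adjusted p = 4.05e-05), and Col6a1 and Col6a2 changed by 1.66 and 1.79. Of the 9 fibril-associated genes Col12a1 (1.88), Col14a1 (1.63) and Col16a1 (1.31) were called higher. In males alone Col12a1 was at 1.14 and not called (limma, adjusted p = 0.145). Col9a2, a chain of the cartilage-associated type IX, went the other way with a change of -0.86 (limma, adjusted p = 0.00232), and each of its 12w-res mice, at 5.65 to 6.58 FPM, was below each 12w+dox mouse, at 8.97 to 14.5 FPM.

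Of the 6 type IV genes, the chains of basement membrane, only the ubiquitous pair was called. Col4a1 was at 306, 273, 349, 342 and 362 FPM in 12w-res and at 141, 65.3, 31.4 and 128 FPM in 12w+dox (2.05 ± 0.32, limma, adjusted p = 0.000269), and Col4a2 changed by 1.81 ± 0.28 (limma, adjusted p = 0.000253). The restricted chains Col4a3, Col4a4, Col4a5 and Col4a6 stayed at or below 8.29 FPM in every 12w-res mouse. Both multiplexins of vascular and epithelial basement membranes rose. Col15a1 changed by 2.10 ± 0.25 and Col18a1, the source of endostatin, by 1.75 ± 0.16 (limma, adjusted p = 2.63e-05 and 1.55e-06).

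The highest fold changes were those of Col17a1 and Col10a1. Col17a1, the hemidesmosome collagen of epithelia, was at 14.6, 15.9, 21.3, 24.7 and 25.2 FPM in 12w-res against 3.14, 1.54, 1.08 and 1.73 FPM (3.17 ± 0.26, limma, adjusted p = 7.08e-07). Col10a1 was at 22.4, 15.3, 40.9, 28.4 and 37.1 FPM, 8.08-fold over 12w+dox on the scale with the pseudocount (3.01 ± 0.30, limma, adjusted p = 4.49e-06). The network chains Col8a1 and Col8a2 changed by 1.49 and 1.03, and the Col8a2 groups overlapped. Of 8 cartilage and bone markers Matn1, Matn3, Comp, Sp7, Bglap and Ibsp were not listed. Alpl and Acan were called higher in 12w-res, with Acan at 0.475 to 2.66 FPM, and their part in the Col10a1 result was not tested.

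**Figure D4:**
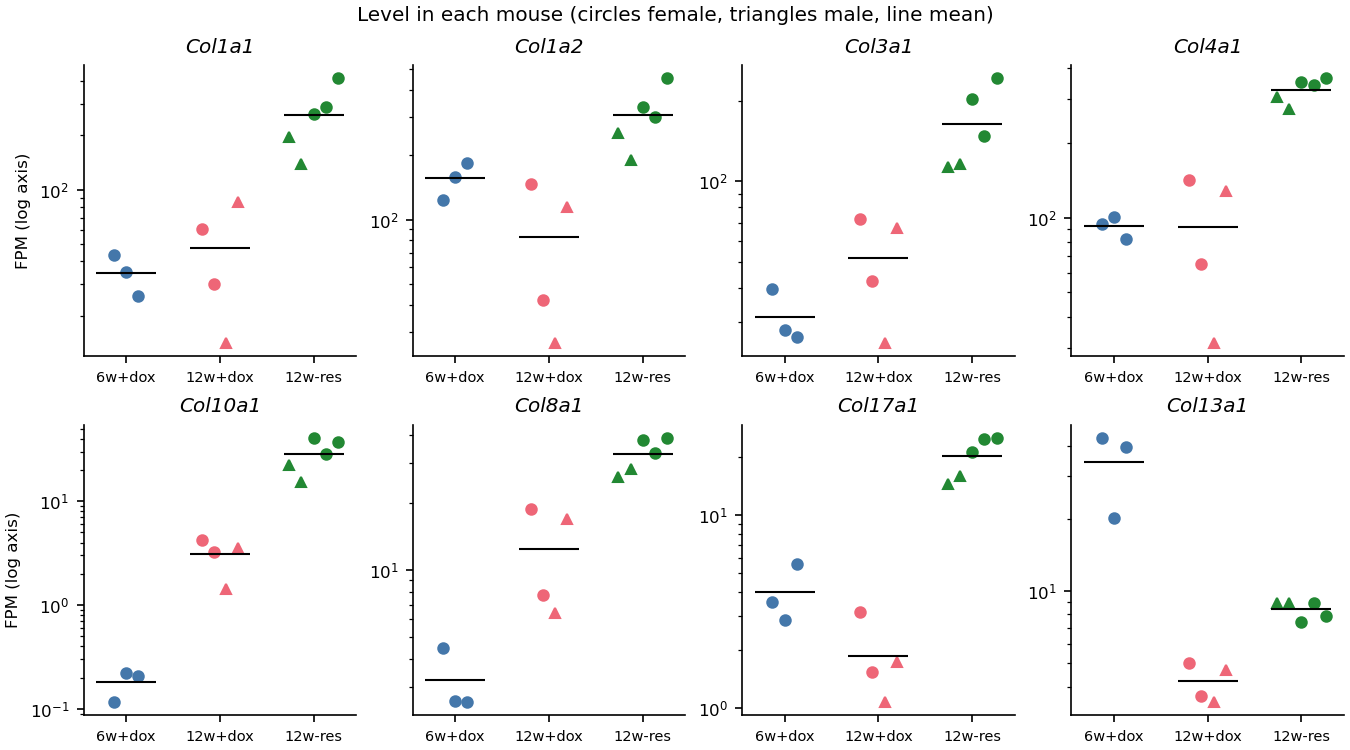
FPM of 8 collagen genes in each long-term mouse on a log axis, with circles for females, triangles for males and a line at the group mean. The 12w-res mice are above all 12w+dox mice in every panel, and Col13a1 alone is highest at 6w+dox.

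Both sexes showed the rise. In females alone 19 collagen genes were called higher and 0 lower, with a median of 1.08, where of 15195 genes in all 774 were higher and 639 lower. In males alone, where 38 collagen genes passed the read minimum and each group had 2 mice, 15 were called higher and 0 lower, with a median of 1.06, where of 14871 genes in all 884 were higher and 871 lower. The 12w+dox mouse of replicate 3 had the lowest level of many of these genes, and without it 19 were called higher, with a median of 0.85.

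Against the starting point, 6w+dox, the 12w-res mice had 19 collagen genes called higher, where 5.81% of all genes were, and 4 called lower, where 5.82% were. These values share the 12w-res mice with those above and are no independent evidence of them. Col10a1 changed by 5.35 ± 0.33 (limma, adjusted p = 4.72e-08), Col8a1 by 3.19, Col1a1 by 2.83, Col6a3 by 2.79 and Col3a1 by 2.33. Col1a2 changed by 0.93 (limma, adjusted p = 0.119), although its 12w-res mice, at 189 to 453 FPM, were all above its 6w+dox mice, at 123 to 184 FPM. Col13a1 (-1.90), Col25a1 (-1.70), Col9a3 (-1.57) and Col23a1 (-1.17) were called lower, 3 of which span the membrane. Col10a1 in 6w+dox and Col9a3 in 12w-res had under 10 reads in every mouse. Each was tested only because of its levels in other groups. Col13a1 in 12w-res, at 7.42 to 8.93 FPM, was above every 12w+dox mouse and below every 6w+dox mouse.

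Genes of collagen folding, processing and turnover were read from a list of 54, of which 52 were tested in the long-term mice. Between 12w-res and 12w+dox 17 were called higher and 0 lower by limma, where 6.24% and 5.04% of all genes were. By edgeR and by DESeq2 21 were called higher and 0 lower. Of all 15315 genes edgeR called 1249 higher and 913 lower, and DESeq2 1290 and 950. At an unadjusted limma p under 0.05, 37 were higher and 1 lower, beside 24.3% and 23.0% of all genes. The median was 0.65. Those with the strongest changes were Creb3l1 (3.04), a transcription factor of collagen secretion, Timp2 (2.21), a metalloproteinase inhibitor, Adamts2 (1.71), which removes the amino-terminal propeptide, Loxl2 (1.68), a cross-linking oxidase, Mmp2 (1.62), a gelatinase, and Fkbp10 (1.54), a collagen foldase. In males alone Mmp2 was at 0.85 and not called (limma, adjusted p = 0.154). Between 12w+dox and 6w+dox 3 were called higher, Mmp9 (1.59), Adamts2 (1.55) and Mmp13 (1.43), where 3.15% of all genes were. There 6 were called lower, led by Creb3l1 (-2.58), Pcolce (-1.87), an enhancer of propeptide cleavage, and Loxl1 (-1.48), where 4.04% of all genes were. In females alone Mmp13 was at 1.49 and not called (limma, adjusted p = 0.0826).

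Markers of the cells that make collagen moved with the 12w-res result. All 6 pericyte markers were called higher than in 12w+dox, where 6.24% of all genes were, with a summed level of 392 to 495 FPM against 98.7 to 243 FPM. Of the endothelial markers 7 of 8 were called, at 218 to 293 FPM against 68.8 to 139 FPM. Of the smooth muscle markers 3 of 4 were called, at 157 to 209 FPM against 41.9 to 90.9 FPM. Of 7 fibroblast markers 4 were called, at 65.7 to 102 FPM against 30.8 to 55.0 FPM, and Dpt was not listed. Of the 7 macrophage and leukocyte markers 0 were called by limma, edgeR or DESeq2, although by limma all 7 had an unadjusted p under 0.05. The summed neural lobe markers, at 123 to 199 FPM, and those of the other anterior lobe hormone cells, at 16675 to 32341 FPM, were also above all 12w+dox mice, with 1 of 6 and 2 of 8 called higher. The sums do not stand for every member. In each of these 2 lists 2 genes were below zero. Only 2 of 6 and 1 of 8 had every 12w-res mouse above every 12w+dox mouse, where 17.1% of all genes did. Against 6w+dox, 4 of 6 and 3 of 8 were called lower in 12w-res and 1 and 0 higher, where 5.82% of all genes were lower and 5.81% higher. The part of these cells in the collagen result was not tested. In 6w+dox the summed pericyte and smooth muscle markers, at 120 to 143 FPM and 67.5 to 101 FPM, lay below those of every 12w-res mouse, as the summed collagens did. The summed fibroblast and endothelial markers of 6w+dox, at 65.0 to 106 FPM and 191 to 251 FPM, overlapped those of 12w-res.

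The third set of comparisons asks what happened in the first days after dox removal. GFP, made from the cassette in the Col1a1 locus, was at 1360, 1025 and 1354 FPM in 16w+dox and at 10.5, 15.2 and 9.34 FPM in 5d-dox, a drop of 6.69 on the log2 scale (limma, adjusted p = 3.77e-08). Rb1 was at 3.47 to 4.89 FPM and 4.92 to 5.38 FPM in the same groups, without overlap, a change of 0.27 that was not called (limma, adjusted p = 0.525). GFP was at 741, 310, 702 and 670 FPM in 1d-dox and at 113, 171 and 80.7 FPM in 3d-dox. Col1a1 was also below all 16w+dox mice at 1 and 5 days, by less than GFP at 5 days, but overlapped them at 3 days. It was at 24.5, 21.7 and 23.5 FPM in 16w+dox, at 8.95, 13.4, 12.1 and 7.11 FPM in 1d-dox, at 34.2, 37.1 and 9.70 FPM in 3d-dox and at 8.30, 18.9 and 13.4 FPM in 5d-dox.

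Most collagen genes had their lower values at 1 and 5 days, the times sampled in females, whereas the 16w+dox group was of males. At 1 day, 0 of 35 collagen genes were called in either direction by limma and by edgeR, where 0.00716% of all 13958 genes were called higher and 0.0358% lower, and DESeq2 called 4 lower, Col15a1, Col27a1, Col4a4 and Col6a3, where it called 84 of all genes lower. Yet 33 of 35 were below zero, at an unadjusted p under 0.05 21 were lower and 0 higher, where 6.28% and 6.78% of all genes were, and for 16 every 1d-dox mouse was below every 16w+dox mouse, where 5.6% of all genes were. The median was -0.75 beside 0.00 for all genes. Without the 16w+dox mouse of replicate 2 the median was -0.45.

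At 5 days 1 collagen gene was called lower, where 0.107% of all genes were, and 0 higher, where 0.086% were. It was Col4a1, at 29.0, 36.2 and 24.4 FPM against 65.8, 67.3 and 65.9 FPM (-1.16 ± 0.18, limma, adjusted p = 0.0121). Leaving out 16w+dox replicate 1, 5d-dox replicate 1 or 5d-dox replicate 3 ended this call. Its partner Col4a2 changed by -0.85 ± 0.15 (limma, adjusted p = 0.0312). For 18 genes every 5d-dox mouse was below every 16w+dox mouse, where 9.64% of all genes were, and 29 of 35 were below zero, with a median of -0.75. At an unadjusted p under 0.05 21 were lower and 0 higher, where 6.33% and 7.2% of all genes were. DESeq2 called 7 lower and edgeR 1, where of all 13958 genes these tools called 103 and 17 lower.

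Within a sex the medians lay near 0. At 3 days, male against male, 0 collagen genes were called by limma, where 0.0788% of all genes were higher and 0.0502% lower, with 2 higher and 1 lower at an unadjusted p under 0.05 (7.95% and 8.7% of all genes), and the median was -0.02. Of 35 genes 14 were above zero, and 21 were when scaled by total reads. By edgeR 0 were called and by DESeq2, which called 72 of all genes higher, 1 was, Col19a1, a fibril-associated chain whose limma change was 1.33 (adjusted p = 0.108). Between 5d-dox and 1d-dox, female against female, 0 were called by limma, edgeR and DESeq2, where 0.00716% of all genes were called in each direction, with 1 higher and 1 lower at an unadjusted p under 0.05 (3.65% and 2.67% of all genes). For 1 gene every 5d-dox mouse was above every 1d-dox mouse and for 3 below, where 4.29% and 3.51% of all genes were. The median was 0.06 and Col1a1 changed by 0.33, with a 95% interval of -0.47 to 1.14. For Col1a1 at 3 days the interval of the change was -0.86 to 0.86. Sex and time off dox cannot be told apart for 1 and 5 days against 16w+dox, and these 3 comparisons share the 16w+dox mice.

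Several marker lists moved with the collagens here as well. In 5d-dox the 8 endothelial markers summed to 12.6 to 17.7 FPM against 29.9 to 50.2 FPM in 16w+dox, and the 6 pericyte markers to 23.9 to 36.3 FPM against 49.8 to 78.5 FPM. In 1d-dox they were at 17.4 to 22.3 FPM and 26.8 to 38.5 FPM. In 3d-dox they were at 28.1 to 49.8 FPM and 43.6 to 66.3 FPM, which overlap 16w+dox. The 3 smooth muscle markers summed to 10.4 to 26.1 FPM in 16w+dox, 5.05 to 8.53 FPM in 1d-dox, 11.3 to 17.9 FPM in 3d-dox and 5.04 to 7.92 FPM in 5d-dox. The 5 fibroblast markers overlapped 16w+dox at each time. Their sums were 6.59 to 8.85 FPM in 16w+dox, 3.86 to 8.76 FPM in 1d-dox, 4.92 to 9.25 FPM in 3d-dox and 4.37 to 6.62 FPM in 5d-dox. The 8 markers of the other anterior lobe hormone cells moved more, with sums of 193 to 206 FPM in 16w+dox, 21.8 to 103 FPM in 1d-dox, 163 to 865 FPM in 3d-dox and 24.1 to 100.4 FPM in 5d-dox. Their median log2 fold change against 16w+dox was -1.57 at 1 day, 1.16 at 3 days and -1.57 at 5 days, with 1 gene called at each time. The part of these cells in the collagen values was not tested. Of the 45 collagen pathway genes tested, 0 were called by limma or edgeR at 1, 3 or 5 days. At an unadjusted p under 0.05 1, 3 and 3 were higher, where 6.78%, 7.95% and 7.2% of all genes were. Lower were 10, 7 and 12, where 6.28%, 8.7% and 6.33% of all genes were. DESeq2 called 1 lower at 1 day, 0 at 3 days and 5 lower at 5 days, where of all 13958 genes it called 84, 32 and 103 lower.

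**Figure D5:**
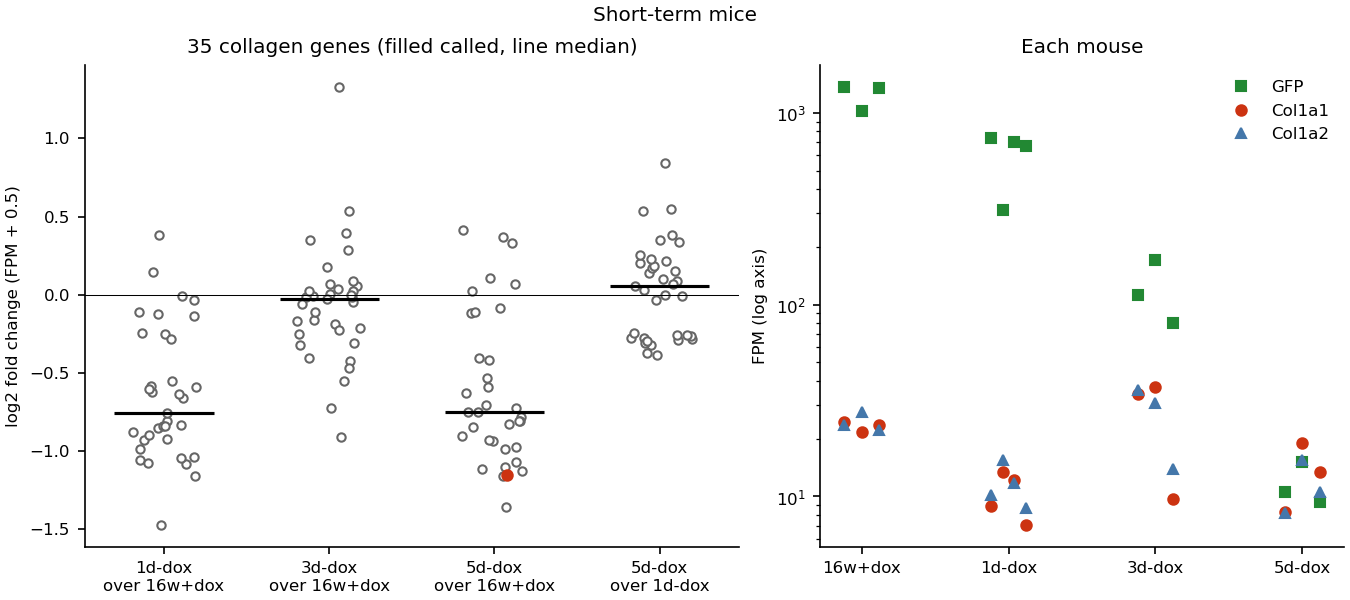
Left, log2 fold changes of the 35 collagen genes in the short-term comparisons, with a line at the median and Col4a1 at 5 days filled as called. Right, FPM of GFP, Col1a1 and Col1a2 in each mouse on a log axis, where GFP falls from 1025 to 1360 FPM to 9.34 to 15.2 FPM while Col1a1 stays between 7.11 and 37.1 FPM.

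The promoters of 3 genes that rose together in 12w-res are shown because they differ in the letters near the start. Each stretch is the 250 bases before the RefSeq start on GRCm38.p6, plus strand. Capitals mark a CCAAT box (CCAAT), a GC box (letters GGGCGG) or a TATA box (letters TATAAA), on either strand.

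Col1a2, chr6:4505368-4505617: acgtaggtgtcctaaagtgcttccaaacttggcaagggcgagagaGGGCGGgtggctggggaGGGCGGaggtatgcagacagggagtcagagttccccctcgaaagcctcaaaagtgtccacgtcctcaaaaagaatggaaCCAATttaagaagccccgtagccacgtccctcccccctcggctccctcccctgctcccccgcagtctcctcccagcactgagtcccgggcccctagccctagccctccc

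Col3a1, chr1:45311288-45311537: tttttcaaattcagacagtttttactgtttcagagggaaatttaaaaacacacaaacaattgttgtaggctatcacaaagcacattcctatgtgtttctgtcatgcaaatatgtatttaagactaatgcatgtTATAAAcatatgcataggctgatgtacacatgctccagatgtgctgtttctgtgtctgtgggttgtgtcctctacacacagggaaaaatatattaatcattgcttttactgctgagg

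Col10a1, chr10:34389731-34389980: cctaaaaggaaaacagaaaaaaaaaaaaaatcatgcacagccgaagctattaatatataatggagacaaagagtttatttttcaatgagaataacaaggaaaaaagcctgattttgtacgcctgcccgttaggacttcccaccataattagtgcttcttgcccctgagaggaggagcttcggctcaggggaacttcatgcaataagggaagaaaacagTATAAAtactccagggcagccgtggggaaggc

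The Col1a2 stretch holds a CCAAT and a pair of GGGCGG runs and no TATAAA, whereas Col10a1 has a TATAAA 32 bases before the start and Col3a1 one at 117. RefSeq windows, which reach 50 bases past the start, matched 32 of the 41 genes with 35 windows. CCAAT or its reverse ATTGG was in 13 of these windows (37.1%, against 37.4% of all 32851 windows), GGGCGG or CCGCCC in 21 (60.0%, against 35.7%), and TATAAA or TTTATA in 5 (14.3%, against 13.6%). Of the 18 windows of genes called higher in 12w-res over 12w+dox, 11 held GGGCGG or its reverse (61.1%). The E2F letters TTTGGCGC were in 0 of the 35 windows and TTTCCCGC in 1, that of Col17a1, against 0.514% and 1.07% of all windows. AP-1 (TGACTCA) was found in 1, that of Col6a1, against 5.20%. These are matches of letters only.

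Neighbours on the chromosome did not all move alike. Col4a1 and Col4a2 lie head to head on chromosome 8, with gene bounds that overlap and starts 84 bases apart, and changed by 2.05 and 1.81 between 12w-res and 12w+dox. Col4a3 and Col4a4 have the same arrangement on chromosome 1 and changed by 0.16 and -0.51, neither called. Reads from the overlap of such genes cannot be assigned to one of them without strand, and whether counting used strand is not given in the sources used here. Col1a1 lies on chromosome 11 from 94936224 to 94953042 (GRCm38.p6, plus strand, 51 exons in its longest transcript), and its values are those listed under that name. How reads from the cassette at this locus were assigned is not given in the sources used here.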

How the data were processed

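RNA-seq values came as a table for 12 long-term mice and a table for 13 short-term mice. Per the methods of the authors, paired reads were mapped to mm10 with STAR at default settings, RefSeq genes with at least 10 reads in over 50% of the samples of one condition were kept, and the signal deposited by the authors for each gene is FPM, reads divided by DESeq2 size factors. How reads were counted, and whether strand was used, is not given in the sources used here.

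Steps of a single read were visible in the values, and 100% of 183780 and 182143 values came out whole within 0.1 read. Lines that name no gene held 68.8 to 75.0% of the reads of the short-term libraries and were left out of tests and library sizes. Depth was 19066053 to 28968476 and 9573101 to 13036900 reads on genes, and intervals between mice, not counting error, set the precision of the folds.

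Groups and sex were taken from the sample labels. All groups of a table entered 1 limma-trend fit (limma 3.58.1, R 4.3.3) on log2(FPM + 0.5), over the 15315 long-term and 13958 short-term genes with at least 10 reads in over 50% of the samples of a group, and p-values were adjusted by Benjamini-Hochberg over all of them. Ratios of chains were compared by exact permutation tests. The alternatives were edgeR 4.0.16 and DESeq2 1.42.0 on the recovered reads, other pseudocounts, scalings and filters, fits within a sex or with sex as a term, a block for the replicate number, only the groups compared, and each mouse left out. On the recovered reads edgeR called 1249 genes higher and 913 lower in 12w-res against 12w+dox, and 524 and 765 in 12w+dox against 6w+dox. The fits were tested on simulated data. Replicate pairs differed by more than sampling noise in both tables.

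The collagen genes and the lists of pathway genes and cell markers were chosen with earlier results of these data known. Named were Col1a1, Col1a2, Col3a1, Col4a1 and Col4a2 in each comparison, up to 10 called collagen genes and up to 6 called pathway genes by size of change, with Rb1 and GFP. Further collagen genes were named after their values were seen, to describe a structural class. Sequences came from RefSeq (GRCm38.p6), GENCODE vM21 and the study's hairpin list, and chromosome 18 was left out of the promoter windows.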

Additional observations from a re-analysis of the deposited data

Results flagged for a closer look

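In 117 groups of 4 or 5 mice, 7 held a collagen gene value far from the rest by Dixon's test at the 95% level, where chance gives about 1 in 20 groups. In 12w+dox these were Col2a1 at 2.77 FPM in replicate 2, with the other mice at 3.94 to 4.12 FPM, Col6a4 at 0.251 FPM in replicate 4, with the others at 0.419 to 0.437 FPM, Col9a1 at 0.6995 FPM in replicate 2, with the others at 0.0838 to 0.105 FPM, and Col24a1 at 7.05 FPM in replicate 1, with the others at 0.475 to 1.08 FPM. In 12w-res Col11a1 reached 22.9 FPM in replicate 5, with the others at 4.89 to 8.87 FPM. In 1d-dox Col2a1 was at 0.567 FPM in replicate 1, with the others at 0.865 to 0.922 FPM, and Col25a1 at 1.31 FPM in replicate 2, with the others at 1.77 to 1.85 FPM. By limma none of these genes was called in a comparison that used the group in which it stood apart.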

How the results depend on the processing

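Over 14 counts of called collagen genes, 238 alternative values lay within 1.5 times the reported count and 16 did not. Many of these counts are 0, and an alternative to such a count was taken as within only if it was 0 too. The tally therefore does not measure how firm the counts above 0 are. For 12w+dox against 6w+dox the 3 lower genes became 5 by edgeR, 6 by DESeq2, 5 with a pseudocount of 0.1 and 1 in females only, and the 2 higher genes became 1 when 10 reads were asked of every sample. For 12w-res against 12w+dox the 0 lower genes became 1 by DESeq2 and 2 when scaled by totals of reads. By DESeq2 4 genes were lower at 1 day, 1 higher at 3 days and 7 lower at 5 days. Leaving out 1 mouse at a time gave 2 to 6 lower genes at 12 weeks on dox, with 6 without 12w+dox replicate 1 or 6w+dox replicate 2, 19 to 21 higher genes in 12w-res against 12w+dox, and 0 to 2 lower genes at 5 days. Signs turned for small changes. For 12w+dox against 6w+dox Col1a1 was at -0.079 with the replicate block, Col4a1 at 0.093 by totals and 0.063 in females, Col4a2 at 0.15 by totals and 0.090 in females, and Rb1 at -0.011 in females. Leaving out mice spanned -0.20 to 0.66 for Col1a1, -0.51 to 0.20 for Col4a1, -0.39 to 0.22 for Col4a2 and -0.17 to 0.45 for Rb1. At 3 days Col1a1 was at -0.0045 with a pseudocount of 0.1, and Col3a1 at 0.10 and Col4a1 at 0.094 by totals. Leaving out mice there spanned -0.33 to 0.61 for Col1a1, -0.24 to 0.43 for Col1a2, -0.26 to 0.18 for Col3a1, -0.24 to 0.092 for Col4a1 and -0.12 to 0.15 for Col4a2. It spanned -0.071 to 0.17 for Rb1 at 1 day and -0.27 to 0.17 for Col1a2 at 5 days against 1 day. The cause was not tested.

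Mice with the same replicate number did not deviate together (correlations of -0.17 to 0.24 and -0.21 to 0.17, with 1 of 11 and 3 of 12 mice closest to their own number), so the numbers were not taken as pairs. With the replicate block the collagen genes called were 2 higher and 2 lower at 12 weeks on dox and 19 higher and 0 lower in 12w-res against 12w+dox. With 3 to 5 mice a group, changes under the fold required were often within the spread between mice.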
